A study of Arabidopsis thaliana with 9 samples.

Results

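The 9 loci described here are genes known for RNA levels that depend on DNA methylation, together with Sadhu elements. All were chosen by gene identifier from the 37898 genes of an Arabidopsis thaliana expression table. They are SDC (AT2G17690), FWA (AT4G25530), QQS (AT3G30720), EPF2 (AT1G34245), RMG1 (AT4G11170) and the Sadhu elements SADHU1-1 (AT2G10410), SADHU1-2 (AT1G30835), Sadhu4-2 (AT1G03420) and SADHU7-1 (AT3G13438). Polyadenylated RNA from seedlings of the Col-0 ecotype, 2 weeks old, was sequenced in 3 genotypes with n = 3 libraries each: wild type, shown as Col-0 in the plots, nrpd1-3 and nrpe1-11. The nrpd1-3 plants carry a T-DNA insertion in NRPD1, the gene for the catalytic subunit of RNA polymerase IV, and the nrpe1-11 plants one in NRPE1, its counterpart in RNA polymerase V. Each of these genes was represented by 1 allele. All 9 libraries carry the treatment label Mock, with no other treatment among them. Values are FPKM, which scale the sequenced fragments of a gene by its transcript length and by the library's total. Separate pools of plants are not stated for the replicates, so a p-value covers the spread of these libraries alone, which may be technical.

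In plants, RNA polymerase IV and RNA polymerase V serve RNA-directed DNA methylation. Polymerase IV transcripts are turned into small interfering RNAs, and polymerase V transcripts are the scaffold at which these RNAs recruit the methyltransferase DRM2. The pathway acts on transposons and repeats and on genes that lie next to them. Methylated repeats upstream of SDC and FWA keep both genes silent in vegetative tissue, whereas RMG1 and EPF2 are known as genes whose RNA depends on removal of methylation by the DNA demethylase ROS1. Sadhu elements are short non-autonomous retroposons of Arabidopsis, some of which differ in methylation and RNA level between natural accessions.

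The tandem repeats upstream of SDC and FWA are shown first, because both loci are known for methylated repeats. At FWA the known repeats also include a longer pair that reaches over the transcript start, which lies outside the scan described here and is not printed. All sequences are from the RefSeq TAIR10.1 assembly and are written 5′ to 3′. SDC lies on the plus strand of chromosome 2, from 7682162 to 7684083, with 3 exons. An array of 168 bases with a 32-base period, chr2:7681918-7682085, ended shortly before its annotated start. Its 5 complete units follow, with capitals at bases that differ from the consensus of the 5.
SDC unit 1: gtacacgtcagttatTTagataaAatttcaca
SDC unit 2: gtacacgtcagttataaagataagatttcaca
SDC unit 3: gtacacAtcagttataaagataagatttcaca
SDC unit 4: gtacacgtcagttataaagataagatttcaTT
SDC unit 5: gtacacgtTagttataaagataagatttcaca
FWA, with 10 exons on the plus strand of chromosome 4 from 13038360 to 13042464, had 2 adjoining copies of a 45-base unit just upstream of its start, at chr4:13038246-13038290 and chr4:13038291-13038335. Capitals mark the 5 bases of the second copy that differ from the first.
FWA unit 1: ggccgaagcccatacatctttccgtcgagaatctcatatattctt
FWA unit 2: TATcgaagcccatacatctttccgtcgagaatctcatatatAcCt
Repeats were scanned in the 300 bases upstream of each gene as 30-base windows with at least 27 matches to the sequence 15 to 150 bases further on. SDC had 94 such windows and FWA had 21, and the other 7 loci had none. Among 3790 genes taken at regular steps through the table, 2.77% had any such window, 0.03% had at least as many as SDC and 0.61% at least as many as FWA. Copies that match less closely were not counted, so a locus without such windows can still hold diverged repeats. The QQS window printed below holds a pair of looser copies, each beginning cactCGgat.

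QQS and RMG1 are shown by the 250 bases upstream of their annotated starts, because these are the protein-coding members whose RNA fell in nrpe1-11. Capitals mark CG, the dinucleotide at which plant genes can be methylated on both strands. QQS lies on the plus strand of chromosome 3 from 12349047 to 12349933, and its window is chr3:12348797-12349046. RMG1 lies on the plus strand of chromosome 4 from 6811103 to 6817339, and its window is chr4:6810853-6811102.
QQS upstream: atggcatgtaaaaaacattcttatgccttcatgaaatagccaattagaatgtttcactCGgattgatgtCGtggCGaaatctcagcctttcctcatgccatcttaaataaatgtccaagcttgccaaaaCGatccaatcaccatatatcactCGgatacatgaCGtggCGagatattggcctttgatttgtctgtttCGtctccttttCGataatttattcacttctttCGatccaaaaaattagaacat
RMG1 upstream: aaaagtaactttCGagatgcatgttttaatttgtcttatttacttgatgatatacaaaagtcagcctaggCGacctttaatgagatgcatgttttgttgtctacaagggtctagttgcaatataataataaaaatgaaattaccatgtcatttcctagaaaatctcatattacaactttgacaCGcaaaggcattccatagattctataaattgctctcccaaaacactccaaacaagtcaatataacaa
The QQS window held 10 CG sites, a number reached by 13.2% of 37879 genes, and the RMG1 window held 3, reached by 78.0%. The median gene had 5 CG sites, and 96.4% of genes had at least 1. Sites of the form CNG, with any base between C and G, numbered 4 for QQS, reached by 69.8% of genes. The RMG1 window held 1 CNG site, reached by 97.9%, and the median gene had 5. Methylation itself was not measured in these libraries.

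Before the members, the libraries were checked against their labels. NRPE1 was lower in each nrpe1-11 library (0.254 to 0.624 FPKM) than in each wild-type library (0.831 to 0.863), but the difference did not pass the test (-0.40 on the log2 scale, adjusted p = 0.196 in limma). Against nrpd1-3 (1.19 to 1.40 FPKM) NRPE1 was called lower in nrpe1-11 (-0.71, adjusted p = 0.0365). That call was lost with a pseudocount of 0.1, with quantile normalization, in a fit of only the 6 libraries, without nrpd1-3 replicate 1, 2 or 3, and without nrpe1-11 replicate 2 or 3 (adjusted p = 0.0521 to 0.119). NRPD1 ranged from 0.670 to 0.947 FPKM in the libraries labelled nrpd1-3 and from 0.489 to 1.06 in the wild type, so its RNA level gave no check of that label. The results for nrpd1-3 below, including those without a call, therefore rest on the label alone. NRPD1 was called higher in nrpe1-11 (1.56 to 2.30 FPKM) than in the wild type (0.80, adjusted p = 0.019), a call lost without wild-type replicate 1 (adjusted p = 0.0557) or 2 (adjusted p = 0.0622) and without nrpe1-11 replicate 2 (adjusted p = 0.0561) or 3 (adjusted p = 0.0788). The table's depth corresponded to 1.01 to 1.25 gigabases of aligned sequence per library, and an FPKM of 1 in a transcript of 1.5 kb then rests on 1519 to 1874 aligned bases. Ribosomal RNA took 14.2% to 21.4% of the FPKM, most in wild-type replicate 2. Leaf markers were present in all libraries but lower in nrpe1-11. The summed FPKM of the 3 leaf markers RBCS1A, LHCB3 and LHCA1 was 3119 to 3534 in nrpe1-11, 4780 to 5470 in the wild type and 4945 to 5196 in nrpd1-3, and each of the 3 was lower in every nrpe1-11 library. The falls were unequal. From the wild type to nrpe1-11, mean FPKM fell 1.3-fold for RBCS1A, 3.9-fold for LHCB3 and 1.9-fold for LHCA1. The 3 root markers PYK10, RHD6 and SCR summed to 524 to 545 FPKM in nrpe1-11, 328 to 444 in the wild type and 397 to 487 in nrpd1-3. That sum was nearly all PYK10, which was called higher in nrpe1-11 than in the wild type (adjusted p = 0.0169), whereas RHD6 and SCR overlapped and were not called (adjusted p = 0.259 and 0.426). STM, a shoot meristem gene, had 2.25 to 3.15 FPKM in nrpe1-11, 0.854 to 1.89 in the wild type and 1.13 to 2.43 in nrpd1-3. The 2 flower markers summed to at most 0.612 FPKM and the 2 seed markers to at most 0.301, with the seed gene CRA1 at 0 throughout. The part of these shifts in the results below was not tested, and fewer cells of a type cannot be told apart from less RNA per cell in these bulk samples.

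Of the 9 loci, 7 passed the filter of at least 1 FPKM in at least 3 of the 9 libraries and were tested among 18212 genes. FWA was not detected, SDC had values but stayed below the filter, and QQS, EPF2, RMG1 and the 4 Sadhu elements were tested. Differences are between mean log2(FPKM + 1) values, which understates the change of low genes. They were tested in limma, with p-values adjusted over all tested genes by the Benjamini-Hochberg method and a threshold of 0.05. In nrpe1-11 against the wild type, SADHU1-1 rose and QQS and RMG1 fell, so 3 of 7 members were called, where 21.7% of all tested genes were called (14.2% higher and 7.54% lower). The libraries of both genotypes did not overlap for 2 members that were higher and 3 that were lower in nrpe1-11, against 28.7% and 10.7% of all tested genes (39.4% in both directions). In nrpd1-3 against the wild type no member was called and 0% of all genes, although 1284 genes and no member had an unadjusted p under 0.05. Groups did not overlap for 1 member, which was lower in nrpd1-3, against 1.56% of all genes lower and 10.1% higher (11.7% in both directions). In nrpe1-11 against nrpd1-3, SADHU1-1 and Sadhu4-2 rose and QQS and RMG1 fell, so 4 of 7 members were called, where 14.7% of all genes were called (6.19% higher and 8.52% lower). There, 2 members without overlap were higher and 2 lower, against 19% and 14.5% of all genes (33.5% in both directions). The comparisons share libraries, the wild type in both comparisons with a mutant and nrpe1-11 in both that involve it, so their values stand side by side and are not independent.

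In the wild type the order of mean levels was SADHU1-1, SADHU1-2, QQS, RMG1, SADHU7-1, Sadhu4-2, EPF2, SDC and FWA. SADHU1-1, with 38.5 to 45.6 FPKM, and SADHU1-2, with 4.92 to 7.70, overlapped no other member. QQS overlapped RMG1, SADHU7-1, Sadhu4-2 and EPF2, and the last 3 overlapped among themselves. RMG1 overlapped only QQS. EPF2, with 1 library at 0, also overlapped SDC and met FWA.

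The scaling of the libraries moved the balance of calls. Over all tested genes the median difference from the wild type was 0.17 for nrpe1-11 and 0.11 for nrpd1-3, and 0.06 between the 2 mutants. Of the genes called in nrpe1-11 against the wild type, 65.3% were higher as deposited, 35.2% after median-ratio rescaling and 46.7% after quantile normalization, and without wild-type replicate 2 the share was 53.3%. In nrpe1-11 against nrpd1-3 the share was 42.1% as deposited, 51.8% after rescaling to the protein-coding sum and 31.4% without nrpd1-3 replicate 2.

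**Figure D1:**
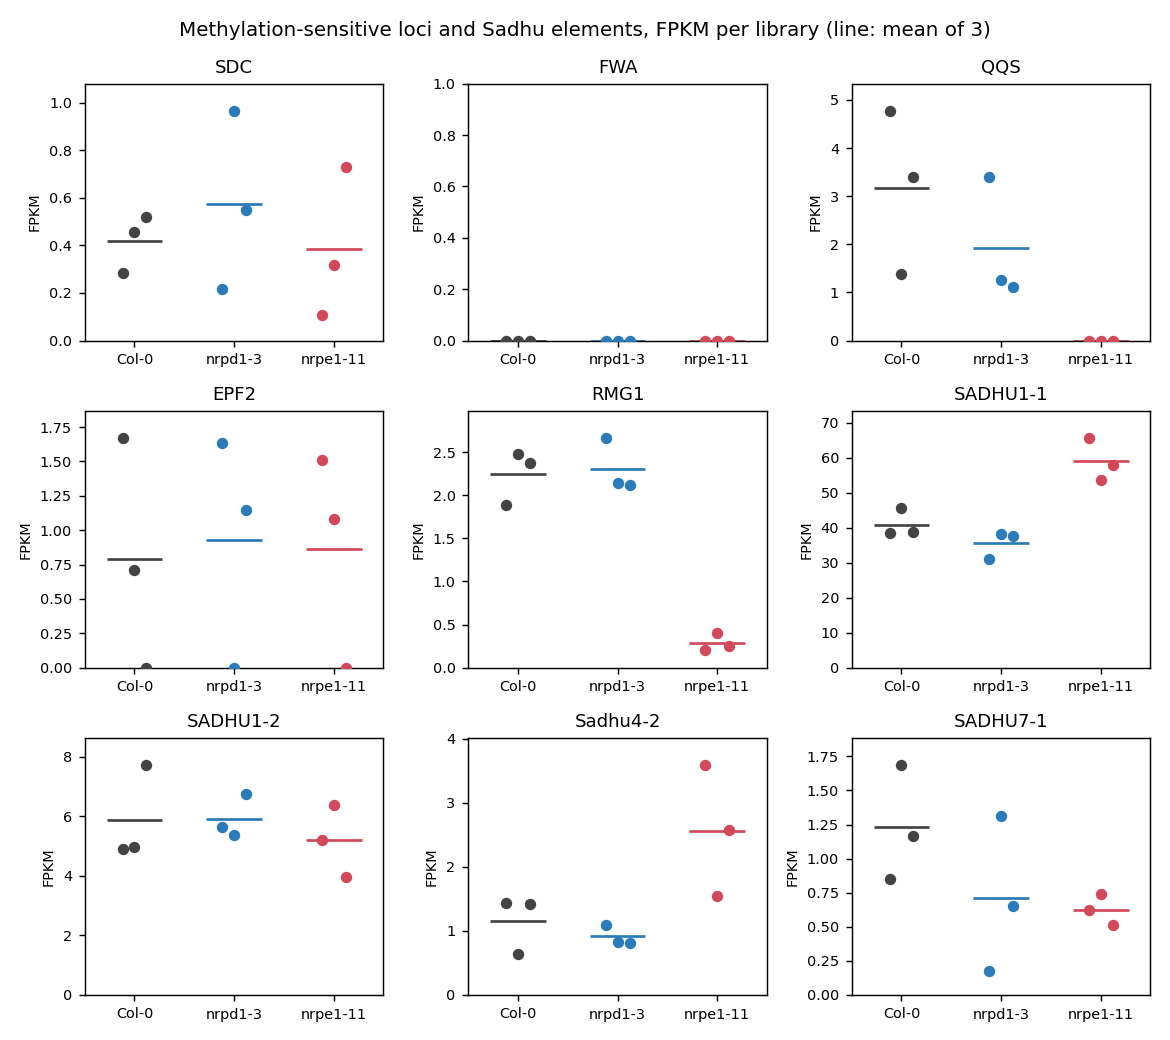
FPKM of the 9 loci in each library, with 1 panel per locus and its own linear axis from 0; points are libraries and lines are means of 3. QQS is at 0 in every nrpe1-11 library, RMG1 lies at 0.205 to 0.400 in nrpe1-11 and at 1.89 to 2.66 elsewhere, SADHU1-1 is higher in each nrpe1-11 library, and FWA is at 0 throughout.

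FWA and SDC, the loci silenced through upstream repeats, gave little or no RNA in any genotype. FWA, a homeodomain transcription factor gene that is expressed in the endosperm of wild-type seeds and delays flowering when it is expressed in the plant, was listed at 0 FPKM in all 9 libraries. It was 1 of 12429 genes in that state, 32.8% of the table. SDC, which encodes an F-box protein whose expression in leaves gives dwarfed plants with curled leaves, had 0.284, 0.456 and 0.520 FPKM in the wild type. Its values were 0.215, 0.965 and 0.548 FPKM in nrpd1-3, and 0.107, 0.316 and 0.731 in nrpe1-11. The 3 genotypes overlapped, and no library reached 1 FPKM. The means were 0.420 ± 0.122 FPKM in the wild type, 0.576 ± 0.376 in nrpd1-3 and 0.385 ± 0.317 in nrpe1-11 (SD, n = 3). With an exact two-sided permutation test, whose smallest possible p with 3 libraries against 3 is 0.1, p was 0.9 for nrpe1-11 and 0.6 for nrpd1-3, each against the wild type. The SDC values rest on an estimated 184 to 1857 aligned bases per library. They are uncertain for another reason too, because 1303 exonic bases of SDC, 80.2% of its exonic length, overlap AT2G17695 on the opposite strand, and it is not stated whether the counting used the strand. AT2G17695 had 5.50 to 9.41 FPKM, above SDC in every library.

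RMG1, which encodes an immune receptor of the NLR type that is induced by the bacterial flagellin peptide flg22, was lower in nrpe1-11 than in both other genotypes. Its values were 1.89, 2.48 and 2.37 FPKM in the wild type, 2.66, 2.15 and 2.12 in nrpd1-3, and 0.205, 0.400 and 0.250 in nrpe1-11. Every nrpe1-11 library lay below every other library, while the wild type and nrpd1-3 overlapped. RMG1 fell 7.88-fold in mean FPKM from the wild type (2.25 ± 0.315) to nrpe1-11 (0.285 ± 0.102), with a difference of -1.34 (SE 0.200, 95% interval -1.76 to -0.91, adjusted p = 0.000233 in limma). Against nrpd1-3 (2.31 ± 0.304) the fall was 8.11-fold (-1.36, adjusted p = 0.000184 in limma). For nrpd1-3 against the wild type the difference was 0.03, with an interval of -0.40 to 0.46, and its sign turned under median-ratio rescaling (-0.06), quantile normalization (-0.07) and protein-coding rescaling (-0.03). The nrpe1-11 values rest on an estimated 763 to 1574 aligned bases per library, so the size of both fold values is uncertain. RMG1 has 4 exons and 3521 exonic bases and overlaps no other annotated locus. Neither of its 2 neighbours on the same strand was called between nrpe1-11 and the wild type. AT4G11160, 4175 bases before it, had 7.99 ± 1.07 FPKM in nrpe1-11 and 7.87 ± 0.627 in the wild type. AT4G11175, 718 bases after it, had 13.4, 15.3 and 13.5 FPKM in nrpe1-11, 18.4, 13.5 and 19.8 in the wild type and 24.4, 18.7 and 25.6 in nrpd1-3. AT4G11175 was called lower in nrpe1-11 than in nrpd1-3 (-0.66, adjusted p = 0.00711 in limma) but not than in the wild type (-0.26, adjusted p = 0.231), where median-ratio rescaling (-0.44, adjusted p = 0.013) and quantile normalization (-0.39, adjusted p = 0.0267) gave a call.

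ROS1, the demethylase on which RMG1 and EPF2 are known to depend, had 4.79, 3.42 and 3.89 FPKM in the wild type, 4.41, 4.44 and 4.22 in nrpd1-3 and 0.980, 0.887 and 1.11 in nrpe1-11. ROS1 fell in nrpe1-11 against the wild type (-1.33, SE 0.175, adjusted p = 6.92e-05 in limma), and its difference between nrpd1-3 and the wild type was 0.10 (adjusted p = 0.883), or -0.002 under median-ratio rescaling and -0.006 under quantile normalization.

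QQS, an orphan gene without recognised relatives outside Arabidopsis thaliana that affects starch content, was listed at 0 FPKM in all 3 nrpe1-11 libraries. It had 4.77, 1.38 and 3.39 FPKM in the wild type and 3.41, 1.27 and 1.10 in nrpd1-3. The wild type and nrpd1-3 overlapped, and in both genotypes the highest library was more than 2-fold above the lowest. QQS fell in nrpe1-11 against the wild type (-1.97, SE 0.327, 95% interval -2.67 to -1.27, adjusted p = 0.000579 in limma). It also fell against nrpd1-3 (-1.46, adjusted p = 0.00605), a call that was lost without the filter on low values (adjusted p = 0.0524). Among all tested genes, 20 were at 0 in each nrpe1-11 library and above 0 in the other 6. The wild-type and nrpd1-3 values rest on an estimated 823 to 4013 aligned bases, if the length of the longest transcript applies. QQS has 3 annotated transcripts, with at most 684 exonic bases and at most 4 exons. It overlaps no annotated locus and lies between the pseudogenes AT3G30722, 340 bases before it, and AT3G30724, 445 bases after it. Both pseudogenes were listed at 0 in all 9 libraries.

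EPF2, a secreted peptide that limits how many epidermal cells enter the stomatal lineage, differed as much within as between genotypes. It had 1.67, 0.712 and 0 FPKM in the wild type, 1.64, 0 and 1.15 in nrpd1-3, and 1.51, 1.08 and 0 in nrpe1-11. Each genotype thus had 1 library listed at 0, a pattern shared by 19 tested genes. The difference from the wild type was 0.07 in nrpe1-11, with a 95% interval of -0.85 to 0.98, and 0.10 in nrpd1-3, and nrpe1-11 differed from nrpd1-3 by -0.04 (adjusted p = 0.929, 0.957 and 0.968 in limma). These differences changed sign when single libraries were left out. The 6 libraries above 0 rest on an estimated 597 to 1700 aligned bases. EPF2 lies on the plus strand of chromosome 1 from 12472868 to 12473974, with 828 exonic bases, and its nearest loci, the pseudogenes AT1G34240 at 1615 bases and AT1G34250 at 9189 bases, were at 0 in all libraries.

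Of 18 other genes of stomatal development, 16 were tested, and EPF1, a related peptide, and ERL1, a receptor kinase, stayed below the filter. In nrpe1-11 against the wild type, 1 of the 16 rose, 0 fell and 15 were not called, beside 14.2% of all tested genes higher and 7.54% lower. The median difference was 0.04, beside 0.17 for all genes. The gene called was FAMA, the transcription factor of the last step to guard cells, which had 11.3, 5.80 and 8.80 FPKM in the wild type and 13.8, 12.6 and 13.8 in nrpe1-11 (0.62, adjusted p = 0.0221 in limma). That call was lost without the filter (adjusted p = 0.0825) and without wild-type replicate 2 (0.39, adjusted p = 0.0736), nrpe1-11 replicate 1 (adjusted p = 0.0654) or nrpe1-11 replicate 3 (adjusted p = 0.0666). MUTE, the factor of the preceding step, had 1.42, 0.641 and 0.586 FPKM in the wild type and 0, 0 and 0.288 in nrpe1-11 without passing the test (-0.76, adjusted p = 0.0551). SPCH, which starts the lineage, had 1.77 ± 0.641 FPKM in the wild type and 1.84 ± 0.384 in nrpe1-11, and TMM, a receptor that acts with EPF2, had 2.50 ± 0.350 and 2.79 ± 0.788. In nrpd1-3 against the wild type, and in nrpe1-11 against nrpd1-3, 0 of the 16 were called, with medians of 0.11 and -0.10.

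**Figure D2:**
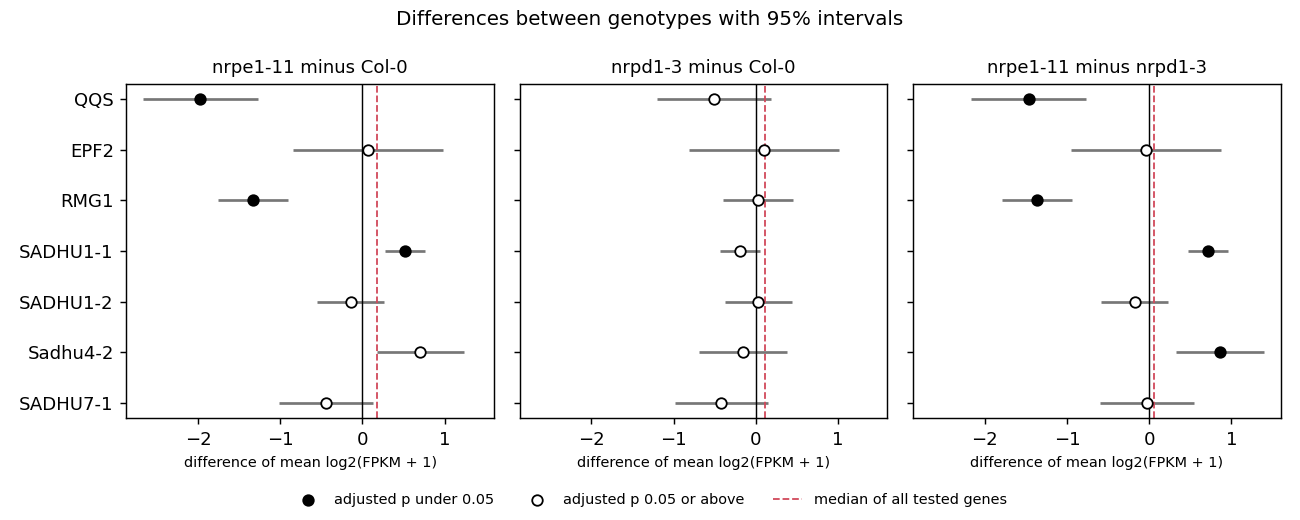
Differences of mean log2(FPKM + 1) for the 7 tested members in the 3 comparisons, with bars for 95% intervals, filled points for adjusted p under 0.05 and a dashed line at the median of all tested genes. QQS and RMG1 lie below 0 and SADHU1-1 above 0 in both comparisons with nrpe1-11, and all 7 intervals of nrpd1-3 against the wild type include 0.

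The 4 Sadhu members spanned a wide range of levels and moved in different ways. SADHU1-1 is annotated as a pseudogene of 1 exon and 1050 bases on the minus strand of chromosome 2, from 4005995 to 4007044. It had 38.5, 45.6 and 38.7 FPKM in the wild type, more than 96.2% of the genes in the table, with 31.0, 38.2 and 37.7 in nrpd1-3 and 65.6, 53.7 and 57.9 in nrpe1-11. All nrpe1-11 libraries were above all others, and all nrpd1-3 libraries were below all wild-type libraries. SADHU1-1 rose 1.44-fold in mean FPKM from the wild type (40.9 ± 4.02) to nrpe1-11 (59.1 ± 6.01), a difference of 0.52 (SE 0.114, 95% interval 0.28 to 0.76, adjusted p = 0.00469 in limma), or 0.35 above the median of all genes. The call was lost after median-ratio rescaling (0.33, adjusted p = 0.113) and quantile normalization (0.38, adjusted p = 0.0611). Against nrpd1-3 it rose 1.66-fold (0.72, SE 0.114, adjusted p = 0.000397), a call kept under every alternative run. The lower level in nrpd1-3 than in the wild type did not pass the test (-0.20, 95% interval -0.44 to 0.05, adjusted p = 0.681). SADHU1-1 shares 122 of its bases, 11.6%, with the pseudogene AT2G10405 on the opposite strand, which was at 0 in all libraries.

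SADHU1-2, on the plus strand of chromosome 1 from 10966907 to 10968878, was the second most abundant Sadhu element. Its values were 4.92, 4.98 and 7.70 FPKM in the wild type, 5.64, 5.38 and 6.73 in nrpd1-3, and 5.19, 6.39 and 3.97 in nrpe1-11. The genotypes overlapped. The difference from the wild type was -0.15 in nrpe1-11 (95% interval -0.56 to 0.26, adjusted p = 0.614 in limma) and 0.03 in nrpd1-3 (adjusted p = 0.975), the last with a negative sign under 3 rescalings. It overlaps no other locus. SADHU1-1 and SADHU1-2 aligned over 795 columns at 71.6% identity, on opposite annotated strands. The 60-base stretch of their alignment with the most shared bases is printed to show what the pair has in common, with SADHU1-1 at chr2:4006383-4006442 and SADHU1-2 at chr1:10967224-10967283, both on the minus strand and with capitals at the 8 bases that differ.
SADHU1-1 stretch: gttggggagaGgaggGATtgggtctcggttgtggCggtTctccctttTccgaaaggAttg
SADHU1-2 stretch: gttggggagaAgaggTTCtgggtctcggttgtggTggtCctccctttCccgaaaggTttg

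Sadhu4-2, on the plus strand of chromosome 1 from 846664 to 847739, was near the filter in the wild type and nrpd1-3 and higher in nrpe1-11. It had 1.43, 0.630 and 1.42 FPKM in the wild type, 1.09, 0.828 and 0.813 in nrpd1-3, and 3.58, 1.54 and 2.57 in nrpe1-11. All nrpe1-11 libraries were above the other 6. The mean was 2.82-fold higher in nrpe1-11 (2.56 ± 1.02 FPKM) than in nrpd1-3 (0.911 ± 0.157), and the difference passed the test (0.86, SE 0.250, 95% interval 0.33 to 1.40, adjusted p = 0.0301 in limma). That call was lost without the filter (adjusted p = 0.0762), without nrpd1-3 replicate 1, 2 or 3 (adjusted p = 0.0524, 0.0815 and 0.0826) and without nrpe1-11 replicate 1 or 3 (adjusted p = 0.143 and 0.09). Against the wild type (1.16 ± 0.459) the mean was 2.21-fold higher and missed the threshold (0.71, 95% interval 0.17 to 1.24, adjusted p = 0.0572), which it passed without nrpe1-11 replicate 2 (0.93, adjusted p = 0.0269).

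The Sadhu4-2 values cannot be assigned to the element alone. Of its exonic bases, 1020, or 94.8%, are shared with 2A6, a gene of the oxoglutarate-dependent oxygenase family, on the opposite strand, and the same 94.8% with the long noncoding RNA AT1G04183 on the same strand. 2A6 had 2.66, 3.08 and 2.47 FPKM in the wild type, 1.88, 2.15 and 2.08 in nrpd1-3 and 4.11, 3.54 and 2.95 in nrpe1-11. It rose in nrpe1-11 against nrpd1-3 (0.57, adjusted p = 0.0423 in limma) and not against the wild type (0.27, adjusted p = 0.288). The 2A6 call was lost after median-ratio rescaling (adjusted p = 0.0653), in a fit of only the 6 libraries (adjusted p = 0.053), and without 7 of the 9 libraries in turn. AT1G04183 had 2.06, 2.02 and 2.19 FPKM in the wild type, 4.41, 2.94 and 2.11 in nrpd1-3 and 4.46, 2.47 and 1.47 in nrpe1-11 and was not called in any comparison. AHP5, a phosphotransfer protein of cytokinin signalling that starts 53 bases beyond Sadhu4-2, had 7.61 ± 1.25 FPKM in nrpe1-11 and 4.90 ± 1.73 in the wild type (0.58, adjusted p = 0.0626).

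SADHU7-1, on the minus strand of chromosome 3 from 4377061 to 4378171, had 0.847, 1.68 and 1.17 FPKM in the wild type, 0.178, 1.31 and 0.650 in nrpd1-3, and 0.625, 0.739 and 0.513 in nrpe1-11. Each nrpe1-11 library was below each wild-type library, and the difference did not pass the test (-0.44, 95% interval -1.01 to 0.13, adjusted p = 0.251 in limma). In nrpd1-3 against the wild type it was -0.42 (adjusted p = 0.693), with overlap. Its values rest on an estimated 248 to 1894 aligned bases, and 978 exonic bases, 88.0%, overlap AT3G13440 on the opposite strand, which had 9.12 to 13.0 FPKM and was not called in any comparison. The element nearest in sequence was SADHU7-2, at 85.5% identity over 908 columns, and SADHU7-2 was at 0 in all 9 libraries. All 886 bases of SADHU7-2 (100%) are shared with AT3G31440 on the same strand, which was also at 0 in all 9 libraries. The 60-base stretch of that alignment with the most shared bases is printed to show what the pair has in common, at chr3:4377783-4377842 and chr3:12804616-12804675 on the minus strand, with capitals at the 3 bases that differ.
SADHU7-1 stretch: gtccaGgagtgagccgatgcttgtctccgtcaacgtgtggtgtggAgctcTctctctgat
SADHU7-2 stretch: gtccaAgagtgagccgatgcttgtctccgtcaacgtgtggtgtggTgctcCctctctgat

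**Figure D3:**
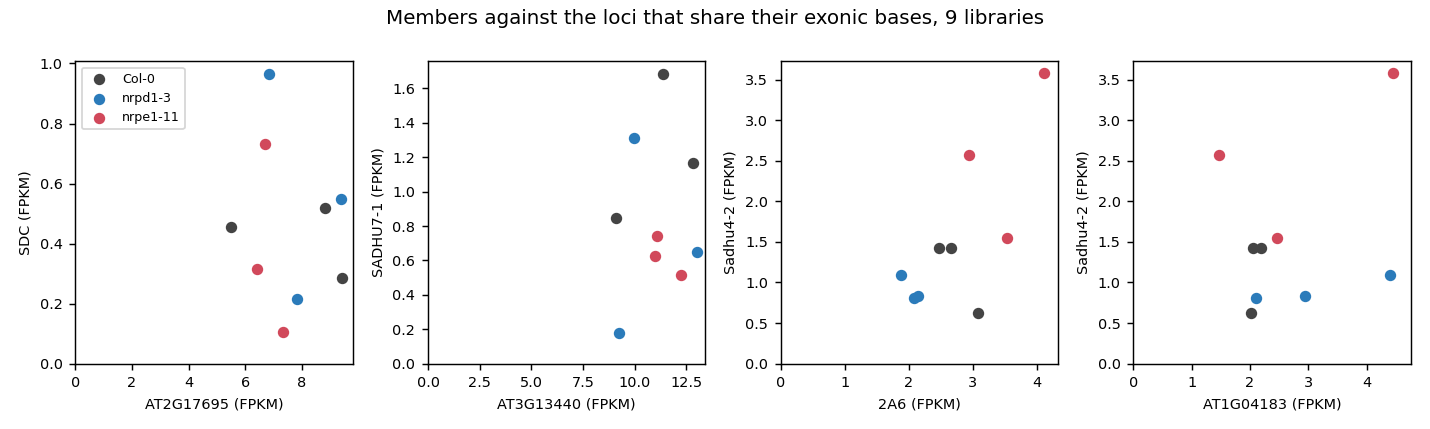
FPKM of SDC, SADHU7-1 and Sadhu4-2 (vertical axes, linear) against the annotated loci that share most of their exonic bases (horizontal axes, linear), 1 point per library. AT2G17695 and AT3G13440 are above SDC and SADHU7-1 in every library. The highest Sadhu4-2 value, 3.58 FPKM, is in the library with the highest 2A6 and AT1G04183 values, 4.11 and 4.46 FPKM. Other libraries differ for AT1G04183, which has 4.41 FPKM beside 1.09 of Sadhu4-2 in nrpd1-3 replicate 1. In nrpe1-11 replicate 3 it has 1.47 FPKM beside 2.57 of Sadhu4-2.

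The annotation holds 16 Sadhu elements, and the other 12 are shown beside the 4 members. Of these 12, 4 were tested, SADHU9-1, SADHU8-1, SADHU7-2 and SADHU5-2 were at 0 in all 9 libraries, and the other 4 stayed below the filter. In nrpe1-11 against the wild type, 0 rose, 2 fell and 2 were not called, beside 14.2% of all tested genes higher and 7.54% lower. The median of -0.35, beside 0.17 for all genes, lies between 2 falling elements and 2 with small positive differences and is near none of the 4 values. SADHU3-2 had 1.23, 1.35 and 2.04 FPKM in the wild type, 0.810, 1.55 and 0.250 in nrpd1-3, and 0, 0.165 and 0 in nrpe1-11, and it fell in nrpe1-11 against the wild type (-1.26, SE 0.274, adjusted p = 0.00453 in limma). SADHU5-1 had 1.75, 1.55 and 1.86 FPKM in the wild type, 4.29, 2.85 and 3.41 in nrpd1-3, and 0.314, 0.141 and 0.650 in nrpe1-11. The 3 genotypes did not overlap, with nrpd1-3 highest and nrpe1-11 lowest. SADHU5-1 fell in nrpe1-11 against the wild type (-1.01, SE 0.214, adjusted p = 0.00399) and against nrpd1-3 (-1.73, adjusted p = 3.65e-05). Its higher level in nrpd1-3 than in the wild type did not pass the test (0.72, unadjusted p = 0.00427, adjusted p = 0.681), as no gene did in that comparison. SADHU3-2 against nrpd1-3 missed the threshold (-0.77, adjusted p = 0.0752), which it passed with a pseudocount of 0.1 (adjusted p = 0.0402) and without nrpd1-3 replicate 3 (adjusted p = 0.0243). By alignment score, SADHU1-3 and SADHU4-1 were the nearest relatives of SADHU1-2 (78.0% identity) and Sadhu4-2 (83.4% identity). The first alignment spans 533 columns and covers 30.3% of the shorter element, the second 831 columns and 88.7%. SADHU1-3 and SADHU4-1 had differences from the wild type of 0.31 and 0.30 in nrpe1-11 (adjusted p = 0.309 and 0.52 in limma). According to the annotation, none of these 4 tested elements shares exonic bases with another annotated locus.

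**Figure D4:**
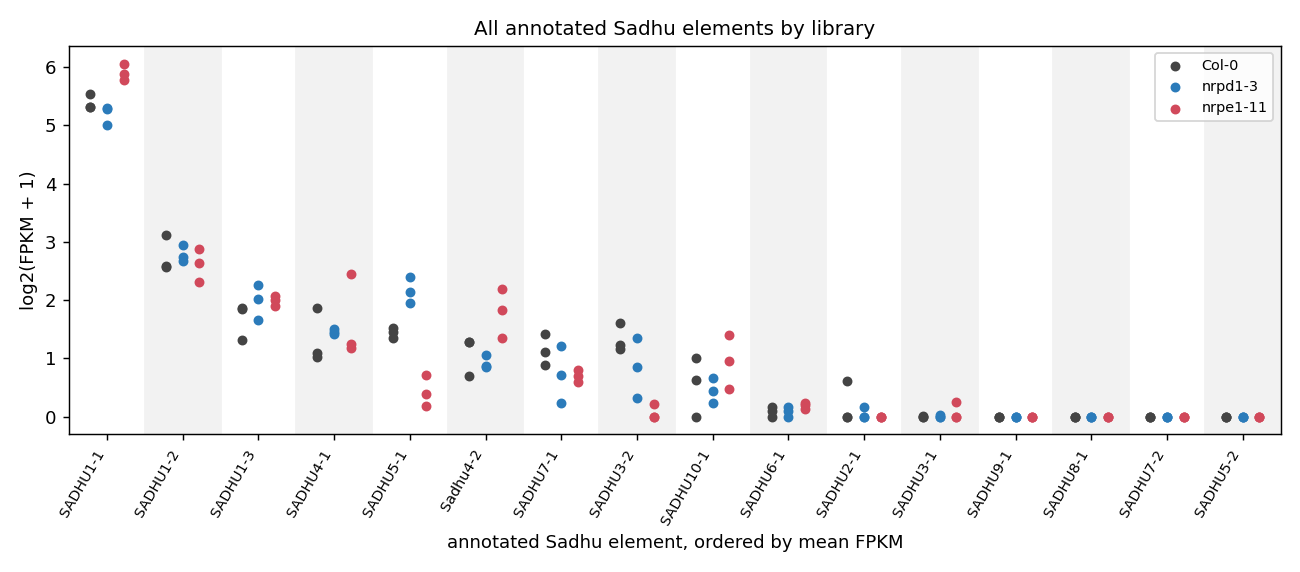
Log2(FPKM + 1) of all 16 annotated Sadhu elements in the 9 libraries, ordered by mean FPKM, with colours for genotypes. SADHU1-1 stands above the others, nrpe1-11 points are highest for SADHU1-1 and Sadhu4-2 and lowest for SADHU5-1 and SADHU3-2, and 4 elements are at 0 throughout.

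Of 15 other genes known for methylation or imprinting, 6 were tested, and FIS2, SUP, HDG8, HDG9, AGL36 and VIM5 were at 0 in all libraries. In nrpe1-11 against the wild type, 0 rose, 1 fell and 5 were not called, beside 21.7% of all tested genes called, with a median of 0.23 beside 0.17. The gene that fell was ROS1. IBM1, a histone demethylase whose full transcript depends on an intronic methylated repeat, had 4.88 ± 0.935 FPKM in the wild type and 6.16 ± 0.533 in nrpe1-11 (adjusted p = 0.235 in limma). BNS, an anaphase-promoting complex gene known from a silenced epiallele, had 0.797, 1.59 and 2.08 FPKM in the wild type and 2.59, 3.67 and 4.46 in nrpd1-3, without overlap and without passing the test (0.89, unadjusted p = 0.00249, adjusted p = 0.681). In nrpd1-3 against the wild type 0 of the 6 were called, and in nrpe1-11 against nrpd1-3 only ROS1, which fell (-1.43, adjusted p = 3.27e-05).

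Around the members, the annotation gave 24 overlapping or nearest loci, of which 14 were tested and 6 were at 0 in all libraries. None of the 14 was called against the wild type in nrpe1-11 or in nrpd1-3 in limma, beside 21.7% and 0% of all tested genes. In nrpe1-11 against nrpd1-3, 2A6 rose and AT4G11175 fell, both described above, and 12 were not called. PUP4, a purine transporter gene 5504 bases beyond SADHU1-2, had 2.44 ± 0.550 FPKM in nrpe1-11 and 1.35 ± 0.186 in the wild type without passing the test (0.54, adjusted p = 0.0793).

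The genes most like each tested member over the 9 libraries were ranked by Pearson's r of log2(FPKM + 1), as a description of points that share a genotype in sets of 3. QQS was nearest to CXIP2 (0.979), G4 (0.969) and CRK20 (0.963), and CRK20 was also at 0 in each nrpe1-11 library. RMG1 was nearest to AT1G52510 and NATA1 (both 0.995) and CAD1 (0.993). NATA1 had 6.73 to 10.1 FPKM in the wild type and nrpd1-3 and 0.250 to 0.594 in nrpe1-11. SADHU1-1 was nearest to AT5G23100 (0.978), FUT6 (0.971) and NAC100 (0.962), and Sadhu4-2 to AT1G14300 (0.972), TBL24 and AT1G33780 (both 0.967). For the 3 members called in no comparison the highest r was 0.936 for EPF2 (AT1G80520), 0.917 for SADHU1-2 (AT4G35840) and 0.874 for SADHU7-1 (AT3G02120). A member that shifts in nrpe1-11 shares that shift with many genes, so the size of r is no result beyond the calls.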

How the data were processed

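Poly(A) RNA-seq libraries of 3 genotypes (n = 3 each) were grouped by their titles. The FPKM values were made by the authors and deposited as 1 table. Per the submitters' processing notes, fastp 0.23.2, HISAT2 2.2.1, StringTie 2.1.7 and TAIR10 were used, with no settings. Strandedness, like read length and number, is not given in the sources used here. The 9 loci and all gene lists were chosen with earlier results of these data known, so their counts are descriptions.

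The table held 37898 genes on 37929 lines (1 gene was on 32 lines) and 0 columns of other samples. All identifiers matched TAIR10.1, which gave names and coordinates. The 18212 genes that reached 1 FPKM in 3 or more of the 9 libraries were tested as log2(FPKM + 1) in limma 3.58.1 (R 4.3.3) with trended empirical Bayes on 14.8 degrees of freedom, two-sided, with Benjamini-Hochberg adjustment. The code was tested on simulated data. Depth was estimated from the steps of low FPKM values, 62.6% to 70.4% of which lay within 0.1 of a step. Tandem repeats, CG sites and Sadhu alignments were computed from the reference with python 3.11.15 and biopython 1.88. Named were the members, NRPD1, NRPE1, ROS1, neighbours, tested Sadhu elements, called list genes and the 3 genes most like each member. MUTE, SPCH, TMM, IBM1, BNS, AHP5 and PUP4 were named after their values were seen.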

Additional observations from a re-analysis of the deposited data

How the results depend on the processing

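RMG1 and QQS against the wild type, RMG1 and SADHU1-1 against nrpd1-3, and SADHU5-1 in both comparisons with nrpe1-11 kept direction and call under every alternative in which they were tested (adjusted p at most 0.0205 in limma). Members called in nrpe1-11 against the wild type were 3, with 1 at a mean FPKM of at least 2, where 2 members were tested, 2 (both lower) under median-ratio rescaling and under quantile normalization, and 3 to 4 with a library left out. Members called in nrpe1-11 against nrpd1-3 were 4, with 2 without a filter, 1 at a mean FPKM of at least 2, and 3 to 4 with a library left out. No member and 0 genes were called in nrpd1-3 against the wild type under any alternative run in limma. All genes called with a library left out were 2766 to 4128 in nrpe1-11 against the wild type and 1986 to 3345 in nrpe1-11 against nrpd1-3. Signs turned in values that no test called. Under median-ratio rescaling these were EPF2 in nrpe1-11 against the wild type (-0.01), and RMG1 (-0.062), SADHU1-2 (-0.077) and ROS1 (-0.002) in nrpd1-3 against the wild type. Under quantile normalization they were RMG1 (-0.074), SADHU1-2 (-0.076), ROS1 (-0.006) and NRPD1 (-0.016) in nrpd1-3 against the wild type, and EPF2 (0.004) and SADHU7-1 (0.089) between the mutants. Under protein-coding rescaling they were RMG1 (-0.025) and SADHU1-2 (-0.033) in nrpd1-3 against the wild type, and with a pseudocount of 0.1 SADHU7-1 between the mutants (0.112). With a library left out, EPF2 ranged from -0.301 to 0.462 in nrpe1-11 and -0.262 to 0.52 in nrpd1-3 against the wild type, and from -0.455 to 0.359 between the mutants. SADHU1-2 ranged from -0.283 to 0.038 in nrpe1-11 and from -0.065 to 0.213 in nrpd1-3 against the wild type. RMG1 (-0.053 to 0.081) and NRPD1 (-0.027 to 0.205) in nrpd1-3 against the wild type, and SADHU7-1 (-0.268 to 0.219) between the mutants, also turned. The cause of these turns was not tested. Same-numbered libraries correlated at -0.07 to 0.15 after removal of genotype means, and differently numbered libraries of different genotypes at -0.12 to 0.07. These values do not settle whether the numbers pair the libraries. With the replicate number as a block, the calls were 4428 genes and 4 members for nrpe1-11 and 0 genes for nrpd1-3, each against the wild type, and 2996 genes and 4 members between the mutants, the added member being Sadhu4-2 against the wild type (0.71, adjusted p = 0.0326). Depth limits SDC, EPF2 and SADHU7-1, whose levels lie near or below 1 FPKM. It also limits Sadhu4-2 in the wild type and nrpd1-3 (0.630 to 1.43 FPKM) and RMG1 in nrpe1-11 (0.205 to 0.400 FPKM). The lowest QQS value above 0 rests on an estimated 823 aligned bases.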
